A study of Rattus norvegicus with 6 samples.

Results

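The genes described here write, erase and read acetyl groups on histones, together with partner proteins that hold these enzymes in complexes. Members were the rows of the deposited gene table whose gene name equalled 1 of 47 listed symbols, a rule that goes by name, although the list was drawn up with earlier results of these data known. Of the 47 genes, 44 had a row among the 34045 rows of the table, in 45 rows because Rcor1 was listed under 2 identifiers. Kat2b, Sirt1 and Brd2 had no row under those names. Kat2b and Sirt1 were not analysed here, and rows described as Brd2 are given apart from the members. The 43 genes of the list with a mean of at least 0.5 FPKM (fragments per kilobase of gene model, scaled to a size for each library) over the 6 libraries filled 44 of the 15965 rows tested.

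RNA was sequenced from defects cut into the calvaria, the upper bones of the skull, of male wild-type Sprague-Dawley rats at week 4 after surgery. In 3 libraries the defect had received a hydrogel named CGG-Cit, and in the other 3 a hydrogel named CGG. The labels spell out neither name beyond a title that speaks of hydrogels coordinated by a metabolite of the tricarboxylic acid cycle, and no untreated defect was among the samples. The rats' age and the number of rats behind each library are not given in the labels, and p-values therefore reflect spread among libraries alone, which may be technical. The same title links the gels to histone acetylation, and the comparison below asks how transcripts of the acetylation machinery stood in the CGG-Cit defects against the CGG defects. RNA levels do not measure acetylation itself or the activity of these enzymes.

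Histone acetyltransferases transfer an acetyl group from acetyl-CoA to lysines of the histone tails, which loosens their hold on DNA and creates a docking site for bromodomain and YEATS domain proteins. Histone deacetylases remove the group, the zinc-dependent classes by hydrolysis and the sirtuins with NAD as a cosubstrate. In bone, class I and class IIa deacetylases are known to restrain the osteoblast regulator Runx2, and class IIa enzymes are held in the cytoplasm when salt-inducible kinases phosphorylate them.

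Of the 44 rows tested, 3 were lower in CGG-Cit defects and 0 were higher (limma with Benjamini-Hochberg adjustment over all rows tested, adjusted p under 0.05). These were Hat1, which acetylates newly made histone H4 before it is placed on DNA, Hdac1, the catalytic subunit of several corepressor complexes, and Brd8, a bromodomain subunit of the TIP60 acetyltransferase complex. That is 6.82% of the members' rows, against 17.5% of all rows tested (9.78% lower and 7.75% higher). At an unadjusted p under 0.05, 2 of the members' rows lay above 0 and 8 below, 10 in all or 22.7%, against 35.4% of all rows in either direction. A second test, limma voom on the whole reads recovered from the values, called 0 members higher and the same 3 lower, against 8.42% of all rows higher and 9.96% lower.

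The 3 genes called are shown with the 250 bases before their transcription start, because they are the members on which the comparison turns. The bases come from RefSeq, build GRCr8, which held a window for 40 of the 47 genes and 50 windows in all. Kat2a, Kat6a, Ncoa2, Ncoa3, Hdac11, Sirt6 and Brpf3 had no entry. Each is written 5′ to 3′ on the strand of its gene. Capitals mark matches, on either strand, to the NF-Y box CCAAT, the GC box GGGCGG and the ETS core CCGGAA, so that a match on the other strand reads as the reverse complement. The Hat1 window is chr3:76624780-76625029 on the plus strand, the Hdac1 window chr5:147165388-147165637 on the minus strand, and the Brd8 window chr18:26504007-26504256 on the minus strand.
Hat1: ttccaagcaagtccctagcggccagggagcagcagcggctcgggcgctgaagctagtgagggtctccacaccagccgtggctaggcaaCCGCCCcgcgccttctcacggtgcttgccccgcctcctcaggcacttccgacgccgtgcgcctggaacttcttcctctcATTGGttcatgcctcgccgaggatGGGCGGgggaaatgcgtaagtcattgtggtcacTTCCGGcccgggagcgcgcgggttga
Hdac1: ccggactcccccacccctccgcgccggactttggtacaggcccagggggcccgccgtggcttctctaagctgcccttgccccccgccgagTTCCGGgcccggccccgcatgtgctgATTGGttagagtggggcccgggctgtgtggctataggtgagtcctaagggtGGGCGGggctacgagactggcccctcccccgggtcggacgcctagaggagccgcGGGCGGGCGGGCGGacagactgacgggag
Brd8: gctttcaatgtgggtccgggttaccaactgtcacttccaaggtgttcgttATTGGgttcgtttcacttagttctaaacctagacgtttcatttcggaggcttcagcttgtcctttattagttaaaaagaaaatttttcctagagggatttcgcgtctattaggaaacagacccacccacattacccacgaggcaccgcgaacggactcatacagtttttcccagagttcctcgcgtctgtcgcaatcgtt
All 3 windows held 1 NF-Y box. Those of Hat1 and Hdac1 also held 1 ETS core each, with 2 GC boxes in the Hat1 window and 4 in the Hdac1 window, of which the last 3 overlap each other. The Brd8 window held no GC box and no ETS core, and a further Brd8 start in RefSeq, chr18:26499374-26499623, had 2 NF-Y boxes. Among the 50 members' windows, 24 (48.0%) held an NF-Y box, against 34.0% of all 33469 windows of that length. A GC box stood in 32 of them (64.0%), against 30.5% of all windows, and an ETS core in 13 (26%), against 12.6%. The E2F letters TTTCCCGC or TTTGGCGC were found in 0 of the 50, against 1.21% of all windows. The members' windows were richer in G and C, with a median of 62.2% against 51.2% over all windows, and a match to such short letters is a description of the sequence only.

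Hat1 (ENSRNOG00000001524) stood at 23.6, 18.9 and 23.4 FPKM in CGG-Cit 1, 2 and 3, against 32.4, 31.7 and 39.5 FPKM in CGG 1, 2 and 3. Every CGG-Cit library lay below every CGG library, with CGG-Cit 2 the lowest and CGG 3 the highest. The means were 21.96 ± 2.64 FPKM in CGG-Cit and 34.5 ± 4.31 FPKM in CGG (SD, n = 3 each), 0.636 times the CGG level. On the log2(FPKM + 1) scale, used for every fold change below, Hat1 fell by 0.63 (SE 0.131, 95% interval -0.94 to -0.32, limma adjusted p = 0.0256). With 1 library left out the difference lay between -0.69 and -0.53. The call held without CGG-Cit 3 and ended without each of the other 5, where the adjusted p was 0.0595 (CGG 1 left out), 0.0567 (CGG 2), 0.0819 (CGG 3), 0.0536 (CGG-Cit 1) and 0.0802 (CGG-Cit 2).

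Hdac1 (ENSRNOG00000009568) had the highest mean level of all members, at 56.6, 49.4 and 58.6 FPKM in CGG-Cit 1, 2 and 3, against 77.2, 69.4 and 77.2 FPKM in CGG 1, 2 and 3. The groups did not overlap, and the second library was the lowest in both. Its means were 54.9 ± 4.87 FPKM in CGG-Cit and 74.6 ± 4.47 FPKM in CGG (SD, n = 3 each), a ratio of 0.736. The log2 difference was -0.44 (SE 0.0995, 95% interval -0.68 to -0.20, limma adjusted p = 0.0312). Leaving out CGG-Cit 3 kept the call. Leaving out CGG 1, CGG 2 or CGG 3 gave adjusted p-values of 0.0884, 0.0593 and 0.102, and leaving out CGG-Cit 1 or CGG-Cit 2 gave 0.0656 and 0.0968.

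Brd8 (ENSRNOG00000020340) stood at 11.7, 11.5 and 12.7 FPKM in CGG-Cit 1, 2 and 3, against 16.8, 15.4 and 16.7 FPKM in CGG 1, 2 and 3. All CGG-Cit libraries lay below all CGG libraries, and the spread within each group was small. Means of 11.97 ± 0.644 FPKM in CGG-Cit and 16.3 ± 0.774 FPKM in CGG (SD, n = 3 each) gave a ratio of 0.734. The log2 difference was -0.42 (SE 0.0903, 95% interval -0.63 to -0.20, limma adjusted p = 0.0278). The call held without CGG-Cit 3, and without CGG 1, CGG 2, CGG 3, CGG-Cit 1 or CGG-Cit 2 the adjusted p was 0.0840, 0.0582, 0.0922, 0.0693 and 0.0995.

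**Figure D1:**
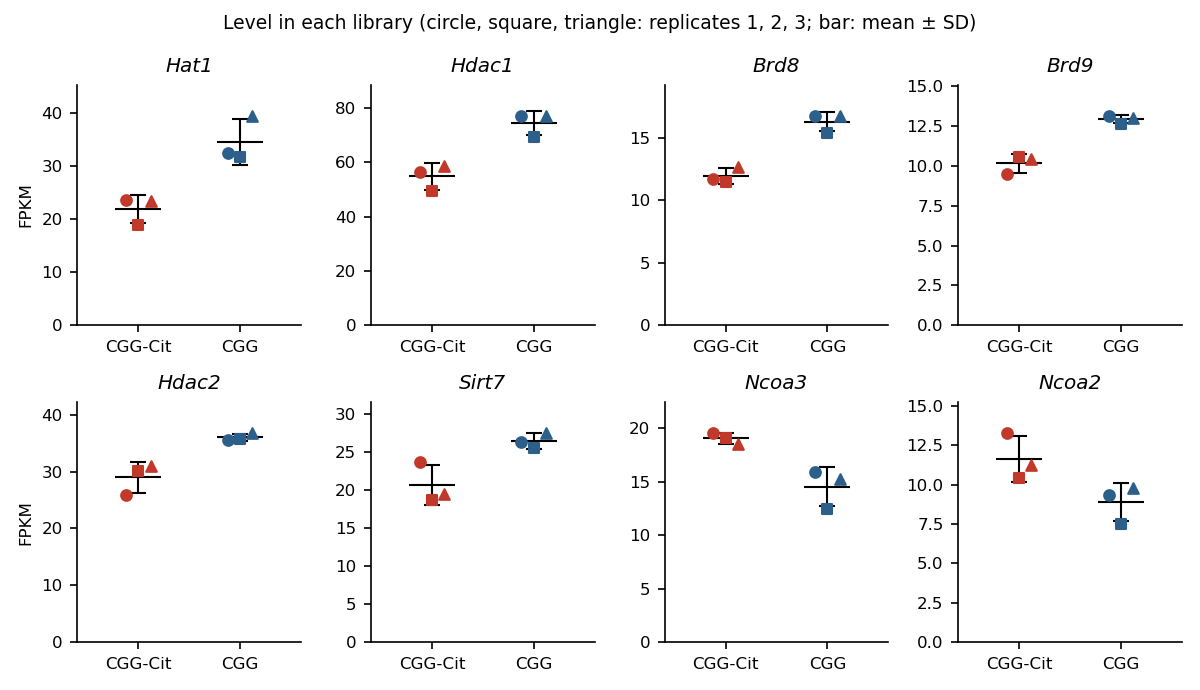
FPKM in each library (linear axis from 0) for the 3 members called and 5 others whose groups did not overlap, CGG-Cit left of CGG, with a bar at the mean and whiskers of 1 SD (n = 3 each). Hat1 lay between 18.9 and 23.6 FPKM in CGG-Cit and between 31.7 and 39.5 FPKM in CGG.

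The 3 calls held under 3 other scalings (equal totals without the 50 most abundant genes, median-of-ratios factors and quantile normalization) and ended under TPM. Median-of-ratios factors were close to the deposited scaling, with a median log2 difference of all rows of 0.005, against 0.002. The FPKM of all genes summed to 534149 to 542517 in CGG-Cit libraries and to 567676 to 655665 in CGG libraries, so rescaling each library to the same sum (TPM) moved the median log2 difference of all rows tested to 0.16, against 0.002 as deposited. Under TPM the 3 calls ended, with differences of -0.47 for Hat1 (adjusted p = 0.0688), -0.27 for Hdac1 (0.188) and -0.26 for Brd8 (0.184). Under TPM 1 member was higher, Ncoa3, and 0 were lower, against 13.8% of all rows higher and 5.94% lower. At an unadjusted p under 0.05, 8 members' rows then lay above 0 and 1 below, where 2 lay above and 8 below as deposited, against 25.8% of all rows above and 10.7% below under TPM. Measured from the median of all rows, the 3 genes stood at -0.63, -0.42 and -0.42 under TPM and at -0.63, -0.44 and -0.42 as deposited.

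Several lists of cell type markers moved with the gel, and their part in the values of the members was not tested. In bulk tissue, fewer cells of a type and less RNA per cell cannot be told apart. Over all rows tested, limma called 9.78% lower and 7.75% higher, and 35.4% had an unadjusted p under 0.05. All 8 cell cycle genes, Ccnb1 and Pcna among them, were lower in CGG-Cit defects, with summed levels of 183 to 275 FPKM in CGG-Cit libraries and 369 to 501 FPKM in CGG libraries. All 7 neutrophil genes tested (2083 to 5384 FPKM in CGG-Cit, 13342 to 14837 in CGG), all 7 erythroid genes (346 to 645 in CGG-Cit, 1091 to 1347 in CGG) and all 8 skeletal muscle genes (35.2 to 325 in CGG-Cit, 6329 to 7898 in CGG) were lower too. Of the osteoblast genes, which mark the labelled bone tissue and were present in all 6 libraries, 5 of 8 were lower (5050 to 9459 FPKM in CGG-Cit, 10411 to 14923 in CGG), as were 4 of 8 B cell genes (54.5 to 92.0 in CGG-Cit, 127 to 200 in CGG). Higher were 7 of 8 macrophage genes (1325 to 2107 in CGG-Cit, 712 to 764 in CGG) and 7 of 8 connective tissue genes (1936 to 2278 in CGG-Cit, 925 to 1469 in CGG). Osteoclast genes split into 3 higher and 1 lower of 7 tested (1088 to 1969 FPKM in CGG-Cit, 1686 to 2175 in CGG), and T and NK cell genes into 1 higher and 1 lower of 8 (111 to 241 in CGG-Cit, 169 to 220 in CGG). At an unadjusted p under 0.05 (limma), 5 of the T and NK cell genes lay above 0 and 1 below, with a median difference of 0.86 over the list. Of 6 endothelial genes tested, 0 were called by limma or voom and 1 had an unadjusted p under 0.05 (126 to 173 FPKM in CGG-Cit, 98.8 to 164 in CGG), with Cldn5 at 0 in every library. CGG-Cit 3 lay nearest to the CGG libraries over all genes, with Pearson correlations of log2 values of 0.937 to 0.95 to them, against 0.908 to 0.919 for CGG-Cit 1 and 2.

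Most members differed little between the gels. The log2 difference was within 0.25 of 0 in 33 of the 44 rows (75.0%), against 46.1% of all rows tested, and its median size was 0.17 over the members and 0.28 over all rows. Of the 44 rows, 30 (68.2%) lay below 0, against 49.8% of all rows, and the median was -0.10, against 0.002. This lean turned round under TPM, where 28 lay above 0 and 16 below with a median of 0.07, against 34.8% of all rows below 0. Measured from the median of all rows, 30 lay below it as deposited and 28 under TPM. Without CGG 3 the members' median was -0.03. In 15 rows (34.1%) the groups did not overlap, 3 with CGG-Cit above CGG and 12 with CGG-Cit below it, against 41.7% of all rows (19.6% above and 22.1% below). For the 41 rows not called, the 95% intervals of the log2 difference reached from -0.90 to 0.69, so on this scale no member's interval included a doubling or a halving.

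**Figure D2:**
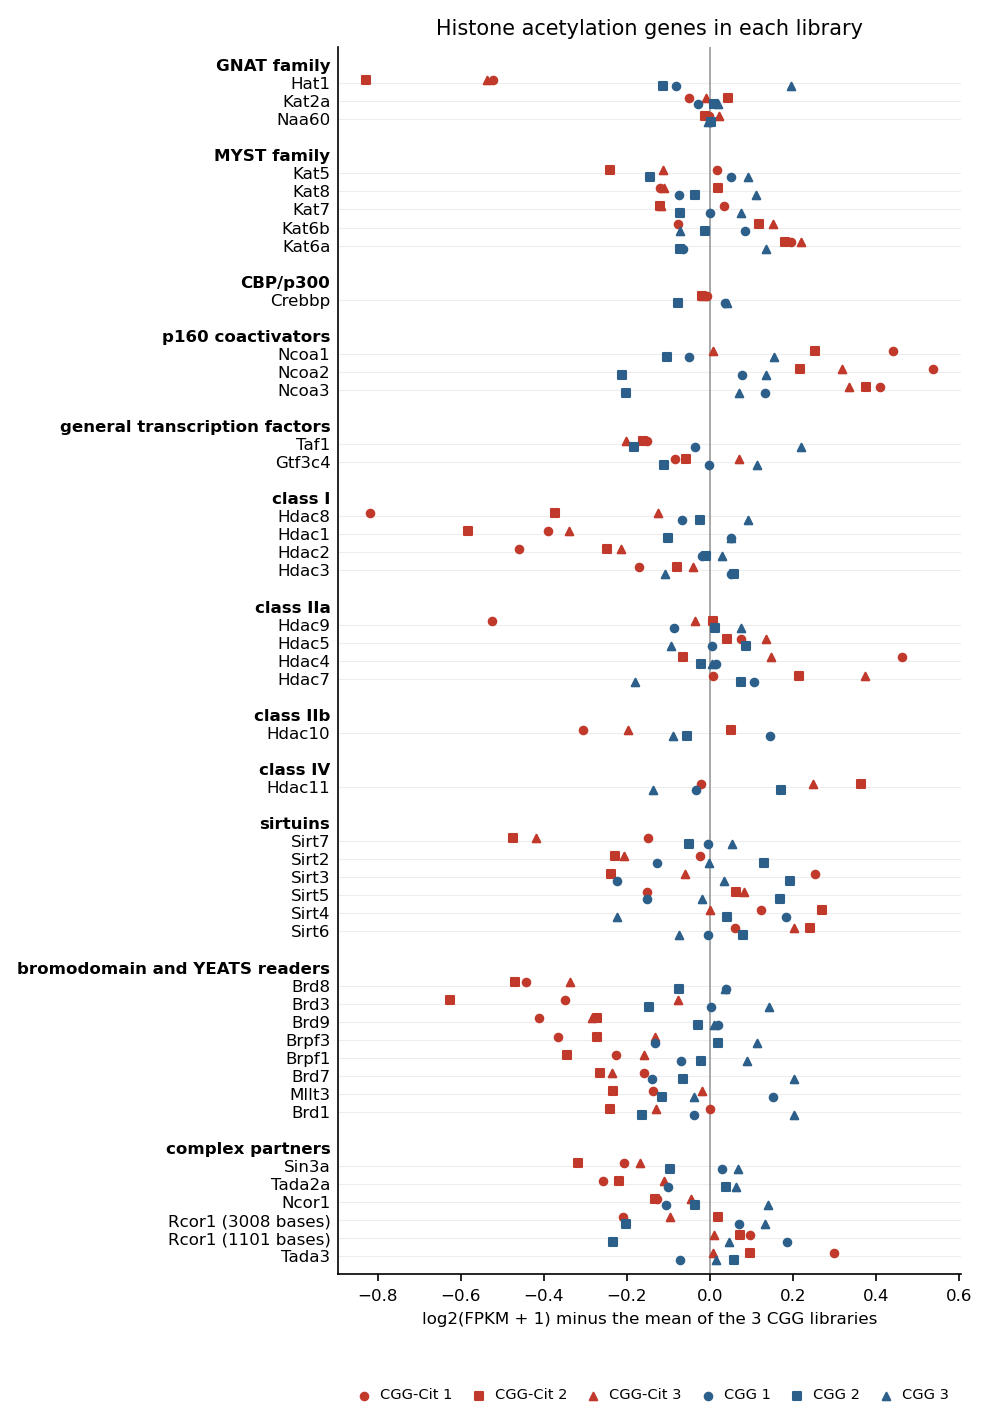
Log2(FPKM + 1) of each library minus the mean of the 3 CGG libraries, 1 line a row tested, CGG-Cit in red and CGG in blue, with a shape for each replicate number. The 3 red points of Hat1, Hdac1 and Brd8 lie left of the 3 blue ones, while those of Kat2a and Naa60 reach to both sides of them.

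**Figure D3:**
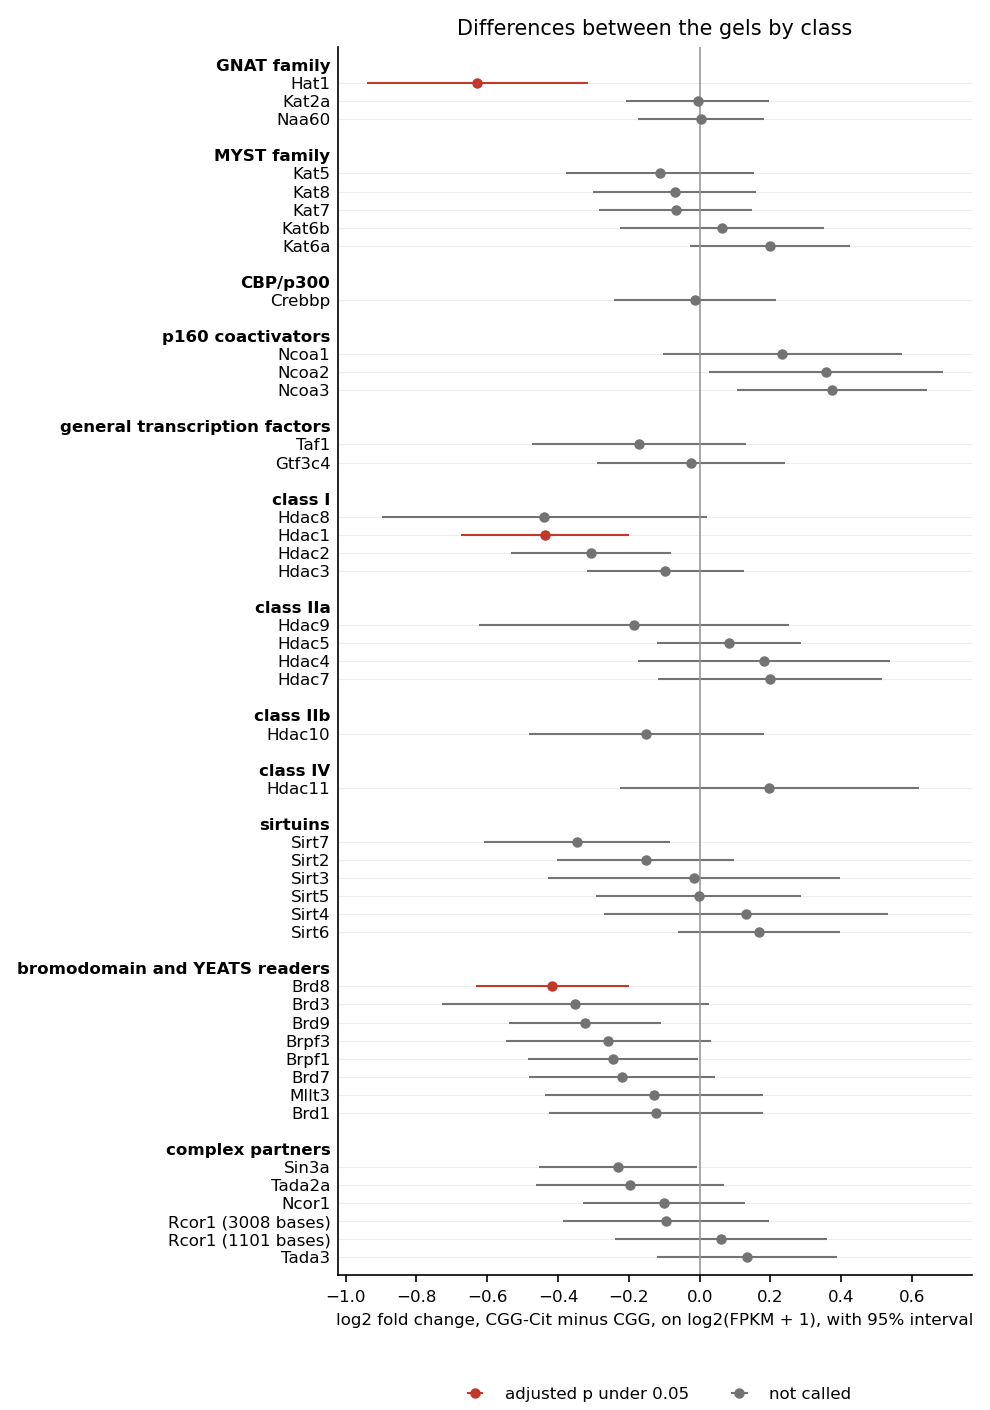
Log2 difference in FPKM + 1, CGG-Cit minus CGG, with 95% intervals for the 44 rows tested, grouped by class, with the 3 calls in red. All 4 class I deacetylases and all 8 readers lay below 0 and all 3 p160 coactivators above it, except that under TPM Hdac3, Brd1 and Mllt3 lay just above 0.

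Among the writers, 6 of 14 rows lay above 0 and 8 below, with a median of -0.01, whereas under TPM 12 lay above 0 and 2 below. The writers' split was also turned round without CGG-Cit 1 (8 above, 6 below), without CGG 3 (9 above, 5 below) and with equal totals (8 above, 6 below). Besides Hat1, the GNAT family members gave nearly equal values in both gels. Kat2a (GCN5, the acetyltransferase of the SAGA and ATAC complexes) averaged 12.3 ± 0.431 FPKM in CGG-Cit and 12.4 ± 0.230 FPKM in CGG (SD, n = 3 each), with a 95% interval of the log2 difference from -0.21 to 0.20. Naa60, an acetyltransferase of the Golgi membrane, ranged only from 23.1 to 23.7 FPKM over the 6 libraries.

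In the MYST family, 2 of 5 members lay above 0 and 3 below as deposited, with a median of -0.07, whereas under TPM all 5 lay above 0. Kat6a (MOZ) was the 1 member with separate groups, at 16.2, 16.0 and 16.5 FPKM in CGG-Cit 1, 2 and 3, against 13.4, 13.3 and 15.5 FPKM in CGG 1, 2 and 3. The gap was narrow at CGG 3, and the log2 difference of 0.20 was not called (limma adjusted p = 0.187). Its paralog Kat6b (MORF) was expressed lower per length, at 3.79 to 4.61 FPKM in CGG-Cit and 3.81 to 4.36 FPKM in CGG, with a difference of 0.06. Kat5 (TIP60), Kat7 (HBO1) and Kat8 (MOF) overlapped between gels, with differences of -0.11, -0.07 and -0.07. Crebbp (CBP), an acetyltransferase recruited by many transcription factors, stood at 6.73 to 6.80 FPKM in CGG-Cit and at 6.43 to 7.05 FPKM in CGG.

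The p160 coactivators, which nuclear receptors use to recruit CBP and p300, were the class with the largest median above 0, at 0.36, and all 3 lay above 0 under every scaling tried. Ncoa3 (SRC-3) stood at 19.5, 19.1 and 18.5 FPKM in CGG-Cit 1, 2 and 3, against 16.0, 12.4 and 15.3 FPKM in CGG 1, 2 and 3. Every CGG-Cit library was above every CGG library, and CGG 2 was the lowest. The log2 difference was 0.37 (SE 0.112, limma adjusted p = 0.0643), and under TPM it passed the threshold at 0.55 (adjusted p = 0.0459). With 1 library left out the adjusted p lay between 0.0840 and 0.166.

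Ncoa2 (SRC-2) stood at 13.3, 10.4 and 11.2 FPKM in CGG-Cit 1, 2 and 3, against 9.36, 7.49 and 9.78 FPKM in CGG 1, 2 and 3. Its groups did not overlap either, and CGG 2 was again lowest, but the difference of 0.36 was not called (SE 0.139, limma adjusted p = 0.121). Ncoa1 (SRC-1) overlapped, at 9.84 to 13.6 FPKM in CGG-Cit and 9.05 to 11.01 FPKM in CGG, with a difference of 0.23. Summed, the 3 genes reached 46.4, 41.4 and 39.6 FPKM in CGG-Cit 1, 2 and 3, against 34.7, 29.0 and 36.0 FPKM in CGG 1, 2 and 3. Of the general transcription factors, Taf1 of TFIID ranged from 7.23 to 7.53 FPKM in CGG-Cit and from 7.34 to 10.02 FPKM in CGG. The Taf1 row is annotated as a processed transcript rather than as protein coding, so the level of its coding transcript is uncertain. Gtf3c4 of TFIIIC ranged from 5.94 to 6.73 FPKM in CGG-Cit and from 5.82 to 6.96 FPKM in CGG.

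Among the erasers, 6 of 16 rows lay above 0 and 10 below, with a median of -0.06, whereas under TPM 10 lay above 0 and 6 below. Without CGG 2 the split was even, 8 above and 8 below, with a median of 0.006. The class I deacetylases, which act in the nucleus, all lay below 0 with a median of -0.37, although under TPM Hdac3 stood at 0.07 and the other 3 remained below 0. Without CGG-Cit 1 the median of the class was -0.24. Hdac2, the partner of Hdac1 in the SIN3, NuRD and CoREST complexes, stood at 25.9, 30.2 and 30.9 FPKM in CGG-Cit 1, 2 and 3, against 35.5, 35.8 and 36.7 FPKM in CGG 1, 2 and 3. CGG-Cit 1 was the lowest, the CGG libraries were close together, and the difference of -0.31 was not called (SE 0.0943, limma adjusted p = 0.0685). Hdac8, a deacetylase of the cohesin ring, was far lower in level, at 2.13, 3.26 and 4.06 FPKM in CGG-Cit 1, 2 and 3, against 4.27, 4.43 and 4.88 FPKM in CGG 1, 2 and 3. CGG-Cit 3 came close to CGG 1, and the difference of -0.44 had an SE of 0.192 (limma adjusted p = 0.156). Leaving out CGG-Cit 1 gave -0.25, leaving out CGG-Cit 3 gave -0.60, and neither was called. Hdac3, the catalytic subunit of the NCoR complex, overlapped, at 15.5 to 17.0 FPKM in CGG-Cit and 16.2 to 18.3 FPKM in CGG.

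The class IIa deacetylases, which shuttle between nucleus and cytoplasm and bind MEF2 factors, gave 3 values above 0 and 1 below, with a median of 0.13, which was 0.064 without CGG-Cit 1, 0.073 without CGG 3, 0.085 without CGG-Cit 3 and 0.31 under TPM. Of the 4, 0 were called by limma or voom or had an unadjusted p under 0.05. Over all rows tested, limma called 17.5%, and 35.4% had an unadjusted p under 0.05. Hdac5 was the most abundant, at 39.6 to 42.3 FPKM in CGG-Cit and 36.0 to 40.9 FPKM in CGG. Hdac7 had 15.8 to 20.6 FPKM in CGG-Cit and 13.7 to 17.0 FPKM in CGG, and Hdac4 had 6.37 to 9.63 FPKM in CGG-Cit and 6.59 to 6.79 FPKM in CGG. Hdac9 was near the bottom of the list, at 1.13 to 2.08 FPKM in CGG-Cit and 1.89 to 2.23 FPKM in CGG.

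The share of one class is unchanged by a scaling with 1 factor for each library, such as TPM, but not by quantile normalization. Class I genes made up 58.1, 57.5 and 58.6% of the summed FPKM of the listed zinc-dependent deacetylases in CGG-Cit 1, 2 and 3. In CGG 1, 2 and 3 they made up 65.5, 63.8 and 67.7%. Class IIa genes made up 38.9, 38.4 and 38.3% in CGG-Cit 1, 2 and 3, against 31.1, 33.01 and 29.4% in CGG 1, 2 and 3. The groups did not overlap for either share. Class I and class IIa hold nearly all of the sum, so where the class I share falls the class IIa share rises, and the separations are not independent. Gene by gene, 3 of 4 class I and 0 of 4 class IIa members had separate groups, against 41.7% of all rows tested. Class I averaged 58.1 ± 0.537% in CGG-Cit and 65.7 ± 1.93% in CGG, and class IIa 38.6 ± 0.324% in CGG-Cit and 31.2 ± 1.80% in CGG (SD, n = 3 each). These sums are weighted to the abundant members, Hdac1 and Hdac2 in class I and Hdac5 and Hdac7 in class IIa, and no test was run on them. Hdac1, called above, averaged 54.9 FPKM of a mean class I sum of 103 in CGG-Cit and 74.6 of 133 in CGG. The class I share therefore repeats the Hdac1 difference in part.

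**Figure D4:**
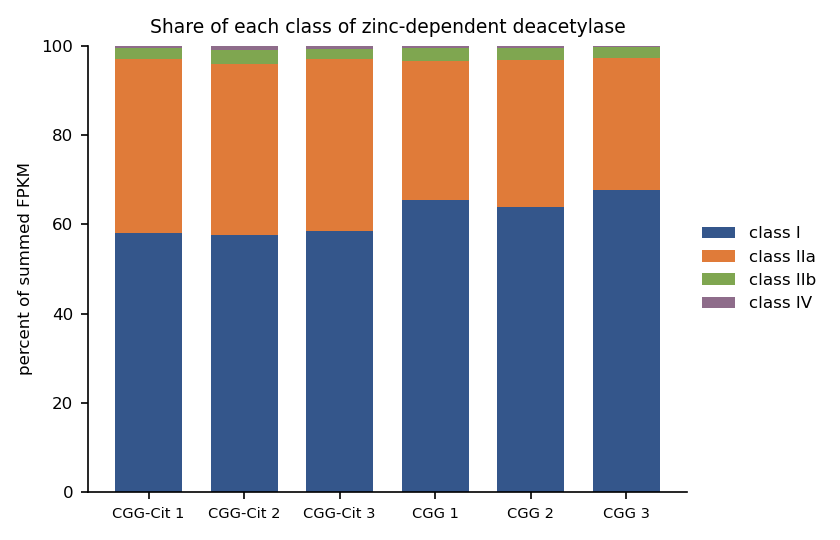
Stacked bars of the percent of the summed FPKM of zinc-dependent deacetylases held by each class, 1 bar a library, CGG-Cit 1 to 3 left of CGG 1 to 3. Class I lay between 57.5 and 58.6% in CGG-Cit and between 63.8 and 67.7% in CGG.

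Hdac6, the class IIb tubulin deacetylase, had 0 or 1 read in every library and was not tested. A further row, LOC108348065, is also described as histone deacetylase 6, and RefSeq gives that gene the symbol Hdac6. It held 1.08, 1.79 and 1.37 FPKM in CGG-Cit 1, 2 and 3, against 0.578, 0.849 and 1.25 FPKM in CGG 1, 2 and 3. The groups overlapped (difference 0.36, limma adjusted p = 0.257), and reads of the copies cannot be told apart here, so the level of Hdac6 is uncertain. Hdac10, a polyamine deacetylase of the same class, had 4.08 to 5.50 FPKM in CGG-Cit and 4.90 to 5.94 FPKM in CGG. Hdac11, the class IV enzyme, was the lowest member tested, at 0.990 to 1.6 FPKM in CGG-Cit and 0.837 to 1.27 FPKM in CGG.

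Of the sirtuins, 2 of 6 lay above 0 and 4 below as deposited, with a median of -0.01, and 5 lay above 0 under TPM. Sirt7, a nucleolar enzyme, stood at 23.8, 18.8 and 19.6 FPKM in CGG-Cit 1, 2 and 3, against 26.4, 25.5 and 27.5 FPKM in CGG 1, 2 and 3. The groups did not overlap, with CGG-Cit 1 nearest to the CGG libraries, and the difference of -0.35 was not called (SE 0.110, limma adjusted p = 0.0738). Without CGG-Cit 1 it was -0.45 and passed the threshold (adjusted p = 0.0483), while without CGG-Cit 2 it was -0.28 (adjusted p = 0.206) and under TPM -0.18 (adjusted p = 0.362). Sirt2, a mostly cytoplasmic deacetylase, was second in level among all members, at 43.9 to 50.8 FPKM in CGG-Cit and 47.1 to 56.5 FPKM in CGG. Sirt6, a chromatin enzyme, had 14.1 to 16.1 FPKM in CGG-Cit and 12.8 to 14.3 FPKM in CGG. The mitochondrial Sirt3, Sirt4 and Sirt5 overlapped between gels, with differences of -0.02, 0.13 and -0.002.

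All 8 readers tested lay below 0, with a median of -0.25, the lowest of the 4 roles, although under TPM Brd1 stood at 0.04 and Mllt3 at 0.01. The further listed reader Brd2 is described in 2 rows under other names, with differences of 0.15 and 0.007 that were not called. Measured from the median of all rows tested, all 8 were below it under both scalings, with medians of -0.25 as deposited and -0.26 under TPM. Brd8, described above, was the 1 reader called. Brd9, a subunit of a SWI/SNF remodelling complex, stood at 9.48, 10.5 and 10.4 FPKM in CGG-Cit 1, 2 and 3, against 13.1, 12.7 and 13.03 FPKM in CGG 1, 2 and 3. The groups were well apart and tight, and the difference of -0.32 lay just past the threshold (SE 0.0896, limma adjusted p = 0.0521). It passed under a stricter filter of 2 FPKM (0.0404), with robust variance shrinkage (0.0484) and with library quality weights (0.0415). Under TPM the difference was -0.17 (adjusted p = 0.357), and with 1 library left out it was called in 0 of 6 cases (adjusted p 0.0769 to 0.135).

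Brpf1 and Brpf3 are scaffolds of MYST acetyltransferase complexes. Brpf1 stood at 9.53, 8.70 and 10.03 FPKM in CGG-Cit 1, 2 and 3, against 10.7, 11.1 and 12.1 FPKM in CGG 1, 2 and 3, and its difference of -0.24 was not called (limma adjusted p = 0.137). Brpf3 stood at 4.70, 5.08 and 5.696 FPKM in CGG-Cit 1, 2 and 3, against 5.697, 6.45 and 6.94 FPKM in CGG 1, 2 and 3, with a difference of -0.26 (adjusted p = 0.183). CGG-Cit 3 and CGG 1 all but touched for Brpf3, while the Brpf1 groups left a wider gap. Brd7, a subunit of the PBAF remodelling complex and, in level, the next member after Sirt2, stood at 38.6, 35.8 and 36.5 FPKM in CGG-Cit 1, 2 and 3, against 39.1, 41.2 and 49.9 FPKM in CGG 1, 2 and 3. Its separation from CGG 1 was slight, CGG 3 was far above the rest, and the difference of -0.22 was not called (adjusted p = 0.207).

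The remaining readers overlapped between gels. Brd3, a BET protein, had 12.9 to 19.3 FPKM in CGG-Cit and 18.4 to 22.7 FPKM in CGG, with a difference of -0.35 (SE 0.158). Brd1, the scaffold of HBO1 complexes, had 13.8 to 16.5 FPKM in CGG-Cit and 14.6 to 19.2 FPKM in CGG, and Mllt3 (AF9), a YEATS domain reader of the super elongation complex, had 3.42 to 4.13 FPKM in CGG-Cit and 3.80 to 4.78 FPKM in CGG.

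The levels spanned a wide range, and neighbours in their order mostly overlapped. Hdac1 led and Sirt2 followed, their ranges over the 6 libraries overlapping, with Brd7 (35.8 to 49.9 FPKM over the 6 libraries) and Hdac5 (36.0 to 42.3 FPKM) overlapping each other. Hdac2 (25.9 to 36.7 FPKM) and Hat1 (18.9 to 39.5 FPKM) came next and overlapped as well. At the low end, Kat6b, Mllt3, Hdac8, Hdac9, Sirt4 and Hdac11 stood below 5 FPKM in every library.

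Of the 6 partner rows, 2 lay above 0 and 4 below, with a median of -0.10, whereas under TPM 4 lay above 0 and 2 below. Without CGG 2 their median was -0.15 and without CGG 3 it was -0.031. As deposited, 0 were called by limma or voom, with 1 at an unadjusted p under 0.05, against 35.4% of all rows. Sin3a, the scaffold of the SIN3 deacetylase complex, stood at 15.1, 13.9 and 15.5 FPKM in CGG-Cit 1, 2 and 3, against 17.9, 16.4 and 18.5 FPKM in CGG 1, 2 and 3. The groups were separate, and the difference of -0.23 was not called (SE 0.0931, limma adjusted p = 0.132). Tada2a, an adaptor of GCN5 complexes, stood at 4.20, 4.35 and 4.77 FPKM in CGG-Cit 1, 2 and 3, against 4.80, 5.39 and 5.50 FPKM in CGG 1, 2 and 3. CGG-Cit 3 lay just under CGG 1, and the difference was -0.20 (adjusted p = 0.256).

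Tada3, from the same adaptor module, overlapped at 15.0 to 18.6 FPKM in CGG-Cit and 14.2 to 15.6 FPKM in CGG. Ncor1, the corepressor that activates Hdac3, had 21.3 to 22.6 FPKM in CGG-Cit and 21.7 to 25.9 FPKM in CGG. Rcor1, the CoREST scaffold, was split over neighbouring rows, with differences of -0.10 for ENSRNOG00000049783 and 0.06 for ENSRNOG00000008067, and its values may divide 1 gene.

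A further 125 genes of the same pathways were listed by complex, of which 124 matched the table and 120 rows were tested. Of these, 6 were higher and 10 lower, or 13.3%, against 17.5% of all rows, with a median of -0.07. In 45 of the 120 rows the groups did not overlap, against 41.7% of all rows. All 16 were among these, but 0 of the rows called in the whole table had overlapping groups, so the call implies it. With 1 library left out fewer rows were called in most cases, here as over all rows, where 122 were higher and 190 lower without CGG 3 and 149 and 249 without CGG-Cit 2. With CGG 3 left out 0 were higher and 0 lower, with CGG 2 left out 0 higher and 1 lower, and with CGG 1 left out 2 higher and 2 lower. Leaving out CGG-Cit 1 gave 2 higher and 3 lower, CGG-Cit 2 gave 1 higher and 0 lower, and CGG-Cit 3 gave 6 higher and 13 lower.

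For the acetyltransferase complexes, 0 of 15 SAGA and ATAC partners were called by limma or voom. At an unadjusted p under 0.05 (limma) there were 1 above 0 and 3 below, against 35.4% of all rows in either direction. Usp22, the ubiquitin protease of SAGA, averaged 26.6 ± 1.64 FPKM in CGG-Cit and 22.1 ± 1.07 FPKM in CGG (limma adjusted p = 0.0939). Wdr5 averaged 13.4 ± 2.55 FPKM in CGG-Cit and 18.3 ± 1.65 FPKM in CGG (limma adjusted p = 0.0923). Of the 14 NuA4 and TIP60 partners tested, which work with Kat5 and Brd8, 1 was lower. This was Ruvbl1, an AAA ATPase, at 12.7, 12.4 and 13.7 FPKM in CGG-Cit 1, 2 and 3, against 18.05, 17.6 and 20.5 FPKM in CGG 1, 2 and 3. It fell by 0.50 on the log2 scale (limma adjusted p = 0.0229). Its partner Ruvbl2 averaged 17.3 ± 0.972 FPKM in CGG-Cit and 22.3 ± 2.06 FPKM in CGG, with a difference of -0.35 that was not called (adjusted p = 0.0601). Of the 14 partners of MYST enzymes, Jade2 of the HBO1 complex was higher, at 14.3 ± 2.56 FPKM in CGG-Cit and 9.54 ± 0.460 FPKM in CGG (difference 0.53, adjusted p = 0.0440). Msl1, the scaffold of the MOF-containing MSL complex, was lower, at 43.0 ± 4.07 FPKM in CGG-Cit and 59.1 ± 2.79 FPKM in CGG (difference -0.45, adjusted p = 0.0270). Under TPM neither Ruvbl1 nor Msl1 was called.

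For the deacetylase complexes, 1 of 11 NuRD subunits was lower. This was Mta2, at 48.7 ± 3.47 FPKM in CGG-Cit and 62.8 ± 4.04 FPKM in CGG (difference -0.36, limma adjusted p = 0.0433), and its call ended under TPM. Of 11 SIN3 partners tested, Ing1, a reader of methylated histone H3, was lower at 16.5 ± 1.17 FPKM in CGG-Cit and 21.7 ± 0.922 FPKM in CGG (difference -0.38, adjusted p = 0.0351), also not under TPM. The row named Sin3b was higher, at 129, 129 and 92.1 FPKM in CGG-Cit 1, 2 and 3, against 67.1, 72.3 and 59.2 FPKM in CGG 1, 2 and 3. Its difference was 0.80 (adjusted p = 0.0233), but the gene model is short and a further unnamed row carries the same description, so the level of the whole gene is uncertain. Of 11 CoREST and NCoR partners, 0 were called by limma or voom. At an unadjusted p under 0.05 (limma) 2 lay above 0, among them Tbl1x (difference 0.26), against 35.4% of all rows in either direction.

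Of 22 other bromodomain and YEATS genes tested, 1 was higher and 1 lower, with a median of -0.09, against -0.25 for the members' readers. Smarca2 (BRM), a SWI/SNF ATPase, was higher at 19.2, 19.5 and 21.0 FPKM in CGG-Cit 1, 2 and 3, against 14.4, 12.4 and 10.1 FPKM in CGG 1, 2 and 3 (difference 0.67, limma adjusted p = 0.0247). Cecr2, a partner of ISWI ATPases, was lower at 2.53, 3.37 and 5.88 FPKM in CGG-Cit 1, 2 and 3, against 10.5, 6.64 and 14.2 FPKM in CGG 1, 2 and 3 (difference -1.22, adjusted p = 0.0476), and its call ended under TPM. Cecr2 spread widely within both gels, and CGG-Cit 3 came close to CGG 2. Trim28, the KAP1 corepressor, averaged 53.5 ± 5.58 FPKM in CGG-Cit and 71.2 ± 7.36 FPKM in CGG (adjusted p = 0.0562).

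Genes that supply acetyl-CoA and NAD, the cosubstrates of the writers and the sirtuins, gave 4 lower and 0 higher of 11, against 9.78% of all rows lower and 7.75% higher. The counts were the same by voom, and at an unadjusted p under 0.05 also 0 above 0. Slc13a5, the plasma membrane citrate carrier, stood at 1.79, 2.68 and 5.28 FPKM in CGG-Cit 1, 2 and 3, against 7.47, 8.05 and 16.1 FPKM in CGG 1, 2 and 3. It fell by 1.45 on the log2 scale (SE 0.378, limma adjusted p = 0.0440), with CGG 3 far above the rest. Crat, the mitochondrial carnitine acetyltransferase, averaged 30.4 ± 1.47 FPKM in CGG-Cit and 49.8 ± 6.49 FPKM in CGG (difference -0.69, adjusted p = 0.0174). Acss1, the mitochondrial acetyl-CoA synthetase, averaged 7.08 ± 1.11 FPKM in CGG-Cit and 12.1 ± 1.16 FPKM in CGG (difference -0.70, adjusted p = 0.0220). Nmnat3, a maker of NAD in mitochondria, averaged 9.02 ± 1.21 FPKM in CGG-Cit and 16.3 ± 1.41 FPKM in CGG (difference -0.79, adjusted p = 0.0153). The skeletal muscle markers, whose median difference was -5.90, moved the same way in the same libraries, and their part in these values was not tested. The genes of this list not named here, which include the cytosolic makers of acetyl-CoA, were not called. The summed level of the 11 genes overlapped between gels, at 201 to 255 FPKM in CGG-Cit and 214 to 270 FPKM in CGG.

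Of 11 clients and regulators of the class IIa deacetylases, 3 were higher and 1 lower, against 7.75% of all rows higher and 9.78% lower. The salt-inducible kinases Sik2 and Sik1, which phosphorylate class IIa enzymes, were both higher. Sik2 stood at 13.8, 19.2 and 13.5 FPKM in CGG-Cit 1, 2 and 3, against 8.04, 7.76 and 7.88 FPKM in CGG 1, 2 and 3 (difference 0.88, limma adjusted p = 0.0169). Sik1 averaged 11.7 ± 0.993 FPKM in CGG-Cit and 7.97 ± 0.851 FPKM in CGG (difference 0.50, adjusted p = 0.0328). Camk2d, a calcium/calmodulin-dependent kinase, was higher at 42.2 ± 4.28 FPKM in CGG-Cit and 26.9 ± 4.00 FPKM in CGG (difference 0.63, adjusted p = 0.0276). Mef2c, a MEF2 factor that class IIa enzymes repress and that muscle also expresses, was lower at 10.7, 16.1 and 17.6 FPKM in CGG-Cit 1, 2 and 3, against 28.7, 27.3 and 26.1 FPKM in CGG 1, 2 and 3 (difference -0.87, adjusted p = 0.0248). Groups did not overlap in 8 of the 11, against 41.7% of all rows, and every row called had separate groups. The muscle markers given above moved the same way as Mef2c, whose dependence on them was not tested.

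**Figure D5:**
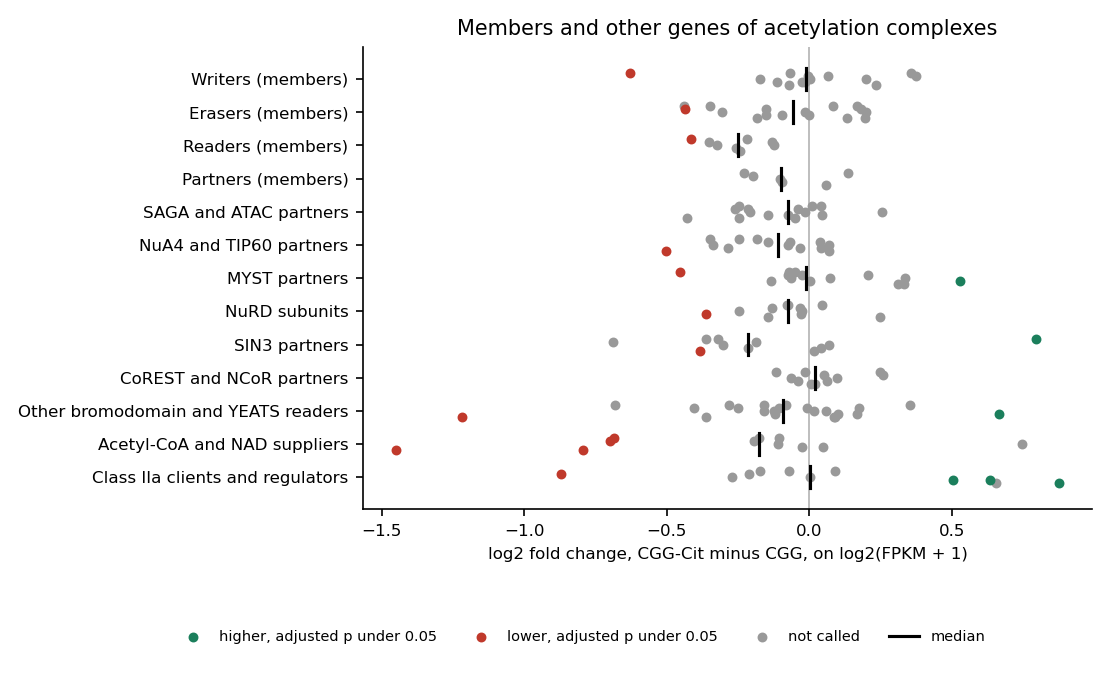
Log2 difference in FPKM + 1, CGG-Cit minus CGG, for the members by role and for the other pathway lists, 1 point a row, with a black bar at the median of each list, calls above 0 in green and below 0 in red. The readers' median of -0.25 (-0.10 under TPM) is the lowest of the members' roles, and medians of the other lists run from -0.21 to 0.02.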

How the data were processed

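Groups and replicate numbers came from the sample titles and treatment labels. The authors deposited 1 table of FPKM per gene for the 6 libraries. Per the submitters' processing notes, mRatBN7.2 was a build used, and the tools included featureCounts 1.5.0-p3, HISAT2 2.0.5 and DESeq2 1.20.0. The positions listed in the table run past the last gene of chromosome 1 in GRCr8, could not be checked against mRatBN7.2 here, and are not printed. Neither the annotation release nor the strand setting is known from the sources used here, so overlapping and antisense genes cannot be told apart. Whole reads were recovered from FPKM and gene length (100% of values within 0.01 of a whole number), 14744207 to 16224920 reads per library. The library size implied by the FPKM was smaller than the recovered reads in CGG 2 (15631490, against 16224920) and CGG 3 (15223734, against 15283405). That size was therefore not a count of mapped fragments. Counting error limits Hdac6, with at most 1 read in a library, and Hdac11 and Sirt4, with 29 to 62 reads.

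Rows with a mean of at least 0.5 FPKM were tested with limma 3.58.1 in R 4.3.3 on log2(FPKM + 1), a scale that understates changes of low genes, with a trended variance prior and Benjamini-Hochberg adjustment over all 15965 rows. The test was checked on simulated data, in which the changed genes differed by more than any member did here. That check therefore does not cover differences of the members' size. Tables and plots were made with Python 3.11.15, pandas 2.3.3 and matplotlib 3.10.9. Alternatives were other pseudocounts, filters, scalings, variance settings, library weights, voom on the recovered reads, a replicate block, a threshold of 0.1 and leaving out each library.

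The members and lists were chosen with earlier results of these data known. All 47 members are accounted for. Values per library are given for members called or with separate groups. Of each other pathway list up to 4 genes, and of each marker list up to 2, with the smallest p could be named, and 1 gene of a pathway list is not reported here. Promoters are shown for called members.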

Additional observations from a re-analysis of the deposited data

How the results depend on the processing

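Over 18 alternatives, 789 values of members were recomputed. Of these, 763 kept their side of the threshold, 20 lost a call, 6 gained one and 0 called values changed sign, while 42 values called in neither setting had the other sign. Most of the 789 belong to rows that were not called, and all 20 losses fell on Hat1, Hdac1 and Brd8. The Hat1 call held in 12 of 18 alternatives, and those of Hdac1 and Brd8 in 11 of 18 each. Members lower numbered 3, and 0 under TPM, 5 with library quality weights, 6 at an adjusted p under 0.1, and 0 to 3 with 1 library left out. Members higher numbered 0, and 1 under TPM and 1 at the looser threshold. Over all rows tested, 1237 were higher and 1561 lower, against 2203 and 948 under TPM and 2083 and 2413 at the looser threshold. Leaving out 1 library gave 122 to 1312 higher and 190 to 1622 lower, the fewest without CGG 3. The other pathway genes gave 6 higher and 10 lower, against 9 higher and 5 lower under TPM, and 0 to 6 higher and 0 to 13 lower with 1 library left out. Under TPM the median difference was 0.16 for writers, 0.11 for erasers, -0.10 for readers and 0.071 for partners, against -0.01, -0.06, -0.25 and -0.10 as deposited, and the partners' median lay between -0.15 and -0.031 with 1 library left out. TPM divides by a total that differed between the gels. For the other changes the cause was not tested.

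Libraries with the same number did not deviate together (correlations of -0.0956, 0.00165 and -0.0779), and each of the 6 correlated best with a library of another number, so the numbers were not taken as pairs. With the replicate block, 612 rows were higher and 1055 lower. Of the members, 1 was then lower, Hat1, with Hdac1 at an adjusted p of 0.0505 and Brd8 at 0.0666, and 2 other pathway genes were higher.

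Precision was limited by 3 libraries a gel and by tissue of mixed cell types.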

Other observations

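Rows that carry no member's name but a matching description were read as well. An unnamed row described as EP300, the p300 acetyltransferase, stood at 18.8, 16.9 and 17.1 FPKM in CGG-Cit 1, 2 and 3, against 18.9, 17.0 and 20.2 FPKM in CGG 1, 2 and 3. The groups overlapped (difference -0.08, limma adjusted p = 0.601).

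The BET gene Brd2 is described in 2 rows. AC098547.1 stood at 5.67, 1.25 and 1.59 FPKM in CGG-Cit 1, 2 and 3, against 3.93, 1.23 and 1.57 FPKM in CGG 1, 2 and 3. LOC108348112 stood at 1.18, 3.52 and 1.13 FPKM in CGG-Cit 1, 2 and 3, against 0.901, 1.45 and 3.45 FPKM in CGG 1, 2 and 3. Which row was high differed from library to library within both gels, and neither was called (differences 0.15 and 0.007, limma adjusted p = 0.849 and 0.992). Hdac1l, described as Hdac1-like, had 0.944 to 1.39 FPKM in CGG-Cit and 1.13 to 1.42 FPKM in CGG, far below Hdac1.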
